A study of Mus musculus with 12 samples.

Results

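The 45 genes described here make up the cell cycle and DNA replication module of mouse liver, found by gene symbol among the 21936 genes of the deposited expression table. They fell by role into 5 G1/S genes, 14 S phase genes and 26 genes of G2 and mitosis. The G1/S genes were the cyclins Ccnd1, Ccne1 and Ccne2 and the transcription factors E2f1 and E2f8. The S phase genes were Mcm2 to Mcm7, Pcna, Tyms, Rrm1, Rrm2, Tk1, Gins2, Cdc6 and Cdt1. The mitotic genes were Mki67, Top2a, Ccna2, Ccnb1, Ccnb2, Cdk1, Cdc20, Cdc25c, Plk1, Aurka, Aurkb, Bub1, Bub1b, Birc5, Foxm1, Mybl2, Kif11, Kif20a, Nusap1, Cenpe, Cenpf, Ube2c, Cdkn3, Ttk, Ect2 and Melk.

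Livers came from C57BL/6 mice, all given carbon tetrachloride (CCl4) intraperitoneally, a hepatotoxin whose repeated injection causes fibrosis, at 1 mL per kg 2 times a week for 8 weeks. The liver fibrosis group (LFG) was sacrificed when CCl4 ended, whereas the regression group (REG) and the hADMSCs-Exo group were then kept for 4 weeks and injected in the tail vein with 200 µL PBS, which for hADMSCs-Exo carried 250 µg of exosomes from human adipose mesenchymal stem cells. Bulk liver RNA was sequenced in 3 libraries per group, and since the sources used here do not say that each library was a separate mouse, p-values measure the spread between these libraries. The columns used for hADMSCs-Exo are headed MSC_E, and all hADMSCs-Exo values would belong to the livers treated with the stem cells themselves if that header named those. No liver without CCl4 was analysed here, so each value is read against fibrotic or recovering liver. The question posed by the design was which transcripts the exosomes changed relative to recovery with PBS and relative to the end of injury.

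Cells commit to division in G1, when cyclin D and cyclin E activate kinases that release E2F factors. E2F factors switch on the genes of S phase, which load the MCM helicase on DNA, make nucleotides and copy the genome, and FOXM1, MYBL2 and the DREAM complex later govern the genes of G2 and mitosis. Most hepatocytes of an adult liver rest outside the cycle and enter it after injury, while stellate cells, macrophages and duct cells can also divide in a fibrotic liver. In bulk samples, fewer cells of a type and less RNA per cell cannot be told apart.

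Promoter sequences are shown first, since early and late cell cycle genes are known to carry different motifs. RefSeq promoters (GRCm38.p6, 250 bases before to 50 after a start) were found for 36 of the 45 members, as 38 promoters. Below are the 250 bases before the start for Ccnb1, Cdk1 and Mki67 of the mitotic group, for Mcm2 of the S phase group, and for Tk1, which was added after its values were seen because it departed from the other members. Capitals mark matches on either strand to the cell cycle homology region (CHR; TTTGAA or TTCGAA), to E2F-type sites (spelled TTCCCGC in the common form, and with central changes as TTCGCGC for a variant, as TTGGCGC for a further variant and as TTGCCGC for the last) and to the NF-Y box (CCAAT).
Ccnb1, chr13:100786487-100786736, minus strand: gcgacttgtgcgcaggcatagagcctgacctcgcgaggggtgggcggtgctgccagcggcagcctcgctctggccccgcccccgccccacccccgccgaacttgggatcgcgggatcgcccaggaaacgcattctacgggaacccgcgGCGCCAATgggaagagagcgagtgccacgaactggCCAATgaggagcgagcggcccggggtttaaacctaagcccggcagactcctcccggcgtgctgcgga
Cdk1, chr10:69352913-69353162, minus strand: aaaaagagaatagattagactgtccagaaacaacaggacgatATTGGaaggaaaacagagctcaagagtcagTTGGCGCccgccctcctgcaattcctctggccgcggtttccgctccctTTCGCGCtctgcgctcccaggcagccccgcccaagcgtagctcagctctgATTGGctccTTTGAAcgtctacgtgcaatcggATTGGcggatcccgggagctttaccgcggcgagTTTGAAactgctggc
Mki67, chr7:135716380-135716629, minus strand: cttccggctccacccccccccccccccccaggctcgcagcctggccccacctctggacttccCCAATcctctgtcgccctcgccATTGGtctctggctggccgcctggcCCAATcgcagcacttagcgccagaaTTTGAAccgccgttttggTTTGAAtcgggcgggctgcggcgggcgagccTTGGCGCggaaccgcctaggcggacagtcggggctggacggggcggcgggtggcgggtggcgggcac
Mcm2, chr6:88898781-88899030, minus strand: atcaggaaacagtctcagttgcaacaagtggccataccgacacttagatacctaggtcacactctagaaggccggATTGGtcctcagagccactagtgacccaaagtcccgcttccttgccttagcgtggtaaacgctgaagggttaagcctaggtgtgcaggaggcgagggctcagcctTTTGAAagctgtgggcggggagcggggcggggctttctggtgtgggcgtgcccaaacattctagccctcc
Tk1, chr11:117826015-117826264, minus strand: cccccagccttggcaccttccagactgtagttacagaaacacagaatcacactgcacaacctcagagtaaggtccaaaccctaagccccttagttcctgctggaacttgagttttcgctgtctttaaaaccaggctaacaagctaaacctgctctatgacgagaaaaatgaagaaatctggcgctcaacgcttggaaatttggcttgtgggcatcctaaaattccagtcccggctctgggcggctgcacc

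In these 250 bases Cdk1 held 2 CHR matches, 2 E2F-type matches and 3 CCAAT boxes, and Mki67 held 2, 1 and 3. In Ccnb1 there were 1 E2F-type match and 2 CCAAT boxes, which overlapped at 1 place, and no CHR letters. Mcm2 had 1 CHR match and 1 CCAAT box. The Tk1 window held none of the letters searched. The same window of Ccne1, not printed above, also held none, although LFG 1 and then LFG 2 were the highest libraries for Ccne1. Over the whole 300 bases, a CHR was present in 16 of 22 mitotic promoters and 2 of 13 S phase promoters, against 19.2% of all 32851 promoters of that length. E2F-type letters showed the other order, with 9 of 13 S phase and 5 of 22 mitotic promoters against 9.57% of all. CCAAT boxes were in 18 of 22 mitotic and 9 of 13 S phase promoters against 37.4% of all, and all 16 mitotic promoters with a CHR also had a CCAAT box, a combination found in 7.52% of all promoters. For each kind of motif, 1 of the 3 G1/S promoters found held a match. These matches describe letters in a window and not bound sites.

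**Figure D1:**
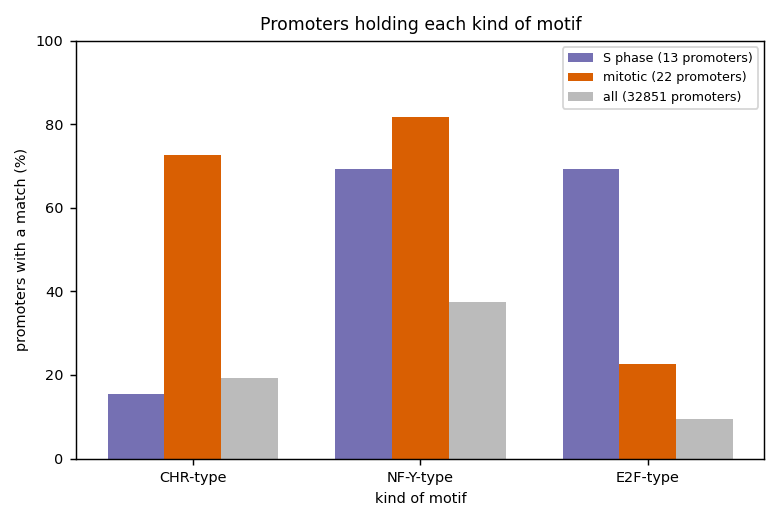
Percent of promoters (y axis, 300 bases each) with a match to each kind of motif (x axis), for S phase members, mitotic members and all RefSeq promoters. CHR-type letters were most frequent in the mitotic promoters (16 of 22) and E2F-type letters in the S phase promoters (9 of 13).

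Library totals ran from 13837445 counts in LFG 3 to 19840917 in REG 3, and genes with at least 1 count from 13924 in LFG 3 to 15248 in LFG 1. Values below are CPM, counts divided by library size and put on a common scale, with library totals adjusted by edgeR's TMM factors, which were 1.38, 1.10 and 0.815 in LFG 1, 2 and 3 and 0.919 to 1.02 in the other libraries. Hepatocyte markers were present in every library, with 7 genes led by Alb summing to 82140, 133480 and 142880 CPM in LFG 1, 2 and 3, 159990 to 166990 in REG and 114330 to 133280 in hADMSCs-Exo. The median deviation of these 7 genes from their mean log2 CPM was lowest in LFG 1 (-0.44) and highest in LFG 3 (0.48), opposite to the S phase and mitotic members, and its part in their values was not tested. LFG libraries differed widely from each other in the markers of other liver cells. The 8 stellate cell and myofibroblast markers summed to 1418, 936 and 58.1 CPM in LFG 1, 2 and 3, against 205 to 361 in REG and 81.0 to 219 in hADMSCs-Exo. The 8 macrophage markers summed to 1884, 1413 and 183 CPM in LFG 1, 2 and 3, against 613 to 1700 in REG and 1016 to 1187 in hADMSCs-Exo. All of these 16 markers had counts in every library, and Col1a1, the main fibrillar collagen chain, was at 2.66 CPM in LFG 3 against 258 and 126 in LFG 1 and 2. The 6 cholangiocyte markers summed to 193, 146 and 49.6 CPM in LFG 1, 2 and 3. The low nonparenchymal markers of LFG 3 therefore stand beside every LFG value below, and their part in the cell cycle results was not tested. The members' comparisons with LFG, and the counts over each list of other genes, are given with all libraries, without LFG 3 and without LFG 1.

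Cell cycle transcripts were high in 2 of the 3 LFG libraries and low in the third. LFG 1 was the highest of the 9 libraries for 44 of 45 members, and LFG 1 and then LFG 2 were the top pair for 41 of 45, including all 26 mitotic genes. The exceptions were E2f8, Tyms, Tk1 and Cdt1. LFG 3 in contrast lay below all 6 REG and hADMSCs-Exo libraries for 23 members, among them 16 mitotic genes, 6 S phase genes and Ccnd1, lay within their range for 20, and lay above them for Ccne1 and Ccne2 alone. With library totals and no scaling factor, these 3 counts were 25, 20 and 0.

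**Figure D2:**
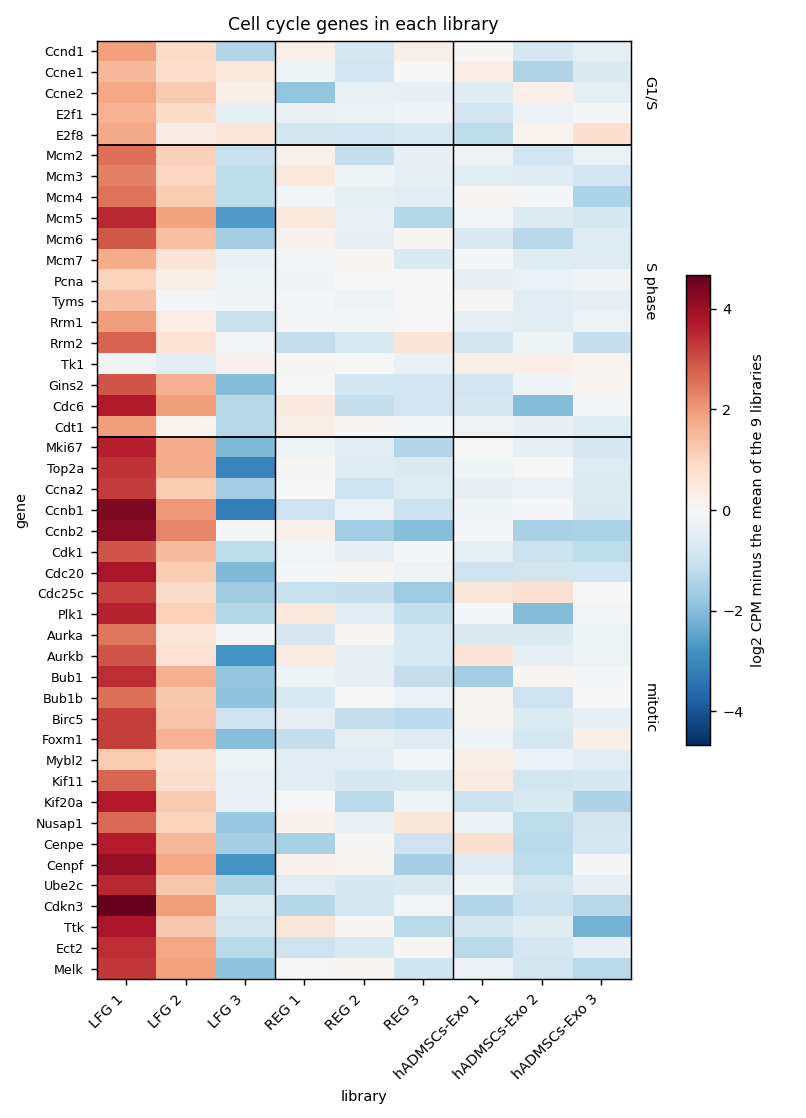
Log2 CPM of each of the 45 members (rows, by role) minus its mean over the 9 libraries (columns), red above and blue below that mean. LFG 1 and LFG 2 are red in nearly every row, LFG 3 is blue in most mitotic rows, and Tk1 shows little colour in any library.

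The height of LFG 1 and 2 rose from G1/S to mitosis. LFG 1 exceeded the median of the 6 REG and hADMSCs-Exo libraries by a median ratio of 4.22 over the G1/S genes (3.94 to 6.81), 7.29 over the S phase genes (0.810 for Tk1 to 32.5 for Cdc6) and 17.5 over the mitotic genes (3.41 for Mybl2 to 97.9 for Cdkn3). For LFG 2 the median ratios were 2.45, 2.76 and 4.15. In LFG 3 they were 1.62, 0.600 and 0.413, the reverse order. Cdc6, a helicase loader, and Cdkn3, a phosphatase of cyclin-dependent kinases, are named for these ratios after their values were seen, and their denominators were small, with Cdkn3 at 2 to 8 counts in those 6 libraries.

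**Figure D3:**
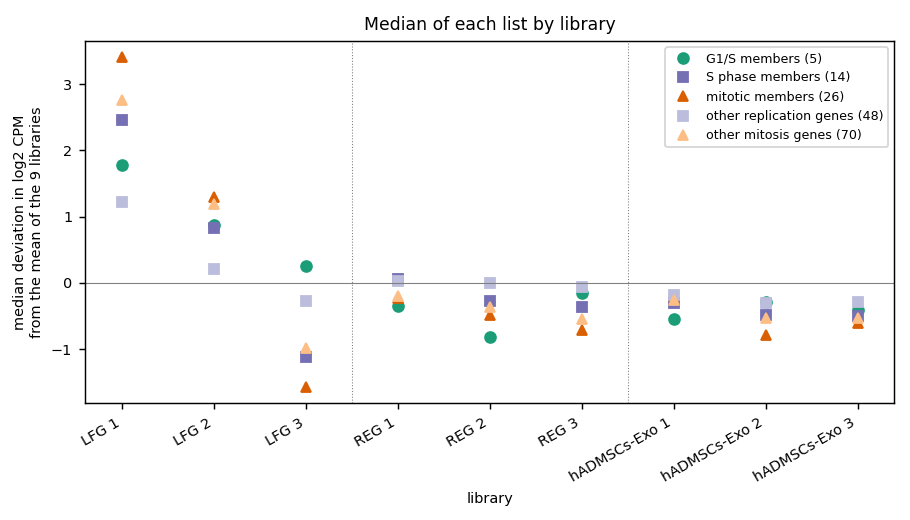
Median over each list of the log2 CPM of a library (x axis) minus the 9-library mean of the gene (y axis), for the 3 roles and for 2 lists of other replication and mitosis genes. Deviations spread from 1.77 to 3.41 over the 3 roles in LFG 1 and from -1.57 to 0.26 in LFG 3, while the REG and hADMSCs-Exo libraries lie between -0.81 and 0.06.

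Per length, the deposited FPKM values put Pcna first in every group, at 24.4 ± 16.6 in LFG, 13.6 ± 0.536 in REG and 12.3 ± 0.386 in hADMSCs-Exo (mean ± SD, n = 3). In REG the next members were Tk1 at 6.66 ± 1.09, Ccnd1 at 5.44 ± 2.09 and Rrm2 at 2.72 ± 1.83 FPKM, and the same 4 genes led in hADMSCs-Exo, with Tk1 at 8.68 ± 0.765, Ccnd1 at 4.53 ± 1.43 and Rrm2 at 2.09 ± 0.746. Levels of Pcna lay above those of Tk1 in every REG and hADMSCs-Exo library, whereas the library ranges of Tk1, Ccnd1 and Rrm2 overlapped between neighbours in REG and not in hADMSCs-Exo. The SD in LFG was near or above the mean for 2 of these 4 genes, with Ccnd1 at 14.6 ± 14.3 and Rrm2 at 13.3 ± 15.9 FPKM, and below it for Pcna and for Tk1 at 7.198 ± 1.77.

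Among the G1/S genes, Ccnd1, the D-type cyclin that starts G1 progression, had 103, 51.00 and 10.6 CPM in LFG 1, 2 and 3, 32.4, 15.5 and 32.8 in REG and 28.3, 15.9 and 20.4 in hADMSCs-Exo. LFG 1 and 2 were above every other library and LFG 3 below them all. Ccne1, a cyclin E that triggers S phase entry, had 7.48, 4.66 and 3.64 CPM in LFG 1, 2 and 3, 2.22, 1.32 and 2.61 in REG and 3.33, 0.904 and 1.58 in hADMSCs-Exo. Ccne2, its close relative, had 7.48, 4.93 and 2.48 CPM in LFG 1, 2 and 3, 0.493, 1.599 and 1.54 in REG and 1.37, 2.41 and 1.52 in hADMSCs-Exo. For both cyclin E genes every LFG library, LFG 3 included, was above every REG and hADMSCs-Exo library on this scale. With library totals alone Ccne1 was at 2.96 in LFG 3 and 3.403 in hADMSCs-Exo 1, and Ccne2 at 2.02 in LFG 3 and 2.43 in hADMSCs-Exo 2, so that LFG and hADMSCs-Exo then overlapped while LFG and REG did not. Ccne2 shared 609 of its 3495 annotated exon bases with Ints8 on the other strand, which was at 13.6 to 15.7 CPM in LFG, 9.80 to 14.6 in REG and 12.1 to 17.0 in hADMSCs-Exo. E2f1, an activator of S phase genes, had 10.8, 6.32 and 2.48 CPM in LFG 1, 2 and 3, 2.65, 2.703 and 3.04 in REG and 1.78, 2.77 and 3.23 in hADMSCs-Exo, with LFG 1 and 2 above the rest and LFG 3 among them. E2f8, a repressor E2F tied to endoreplication, had 4.46, 1.61 and 1.86 CPM in LFG 1, 2 and 3, 0.616, 0.607 and 0.693 in REG and 0.476, 1.39 and 2.21 in hADMSCs-Exo. All LFG libraries exceeded all REG libraries for E2f8, while hADMSCs-Exo 3 was above LFG 2 and 3.

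Of the S phase genes, Mcm2, a subunit of the replicative helicase, had 30.9, 11.1 and 2.39 CPM in LFG 1, 2 and 3, 5.98, 2.37 and 3.89 in REG and 4.28, 2.71 and 4.05 in hADMSCs-Exo. Mcm6, another subunit, had 74.1, 26.1 and 3.104 CPM in LFG 1, 2 and 3, 11.2, 7.501 and 10.2 in REG and 6.06, 3.92 and 6.39 in hADMSCs-Exo. In both, LFG 1 and 2 stood above all other libraries, and LFG 3 was below all of them for Mcm6 and next to the lowest for Mcm2. The other 4 MCM subunits among the members had LFG 1 at 22.4 to 40.1 CPM and LFG 2 at 8.704 to 18.02, against 0.443 for Mcm5 to 9.40 for Mcm7 in LFG 3. Of these, Mcm3 had 33.5, 12.8 and 2.75 CPM in LFG 1, 2 and 3, 9.06, 5.52 and 4.64 in REG and 4.58, 4.16 and 3.42 in hADMSCs-Exo. Pcna, the sliding clamp of DNA polymerase, had 74.5, 44.02 and 30.6 CPM in LFG 1, 2 and 3, 32.3, 35.6 and 35.96 in REG and 28.00, 29.6 and 32.7 in hADMSCs-Exo. LFG 1 and 2 were above the other 7 libraries for Pcna, and LFG 3 was inside the range of the recovery libraries. Rrm1, the large subunit of ribonucleotide reductase, had 54.2, 18.1 and 6.74 CPM in LFG 1, 2 and 3, 13.7, 13.5 and 14.4 in REG and 10.5, 10.1 and 11.95 in hADMSCs-Exo. Rrm2, the S phase limited subunit of the same enzyme, had 63.5, 14.7 and 8.51 CPM in LFG 1, 2 and 3, 4.19, 5.63 and 14.1 in REG and 5.11, 8.02 and 4.36 in hADMSCs-Exo, so that REG 3 came near LFG 2, and LFG 3 was above 5 of the 6 recovery libraries. For Rrm1, by contrast, LFG 3 was the lowest library.

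Tk1, the cytosolic thymidine kinase, was the one member for which LFG 1 was not the highest library. It had 34.2, 26.3 and 44.5 CPM in LFG 1, 2 and 3, 41.03, 38.4 and 30.3 in REG and 46.2, 47.2 and 43.5 in hADMSCs-Exo. LFG 2 was the lowest library of all for Tk1, and the 3 hADMSCs-Exo libraries lay above the 3 REG libraries. Tk1 overlaps the gene Afmid on the other strand, with 83 of 5198 exon bases shared, and Afmid was at 9.92, 17.9 and 24.8 CPM in LFG 1, 2 and 3, 19.5 to 21.6 in REG and 20.3 to 35.4 in hADMSCs-Exo. Whether strand was used in counting is not given in the sources used here, and the part of such reads in Tk1 was not tested. An overlap with another gene of the table was annotated for 13 members, the largest in exon bases being Gins2 with Gse1 (2758 of 4097).

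The mitotic genes spread most between the LFG libraries. Mki67 lies at chr7:135689784-135716361, Ccnb1 at chr13:100778650-100786570 and Cdk1 at chr10:69335146-69352938 (GRCm38, all on the minus strand). Mki67, which encodes the Ki-67 antigen of cycling cells, had 92.6, 24.7 and 1.69 CPM in LFG 1, 2 and 3, 6.22, 5.18 and 2.77 in REG and 7.25, 5.36 and 4.17 in hADMSCs-Exo. Top2a, the topoisomerase that untangles chromosomes, had 42.1, 13.2 and 0.355 CPM in LFG 1, 2 and 3, 4.13, 2.59 and 2.45 in REG and 3.45, 3.92 and 2.59 in hADMSCs-Exo. Ccnb1, the cyclin that activates CDK1 at mitotic entry, had 22.2, 4.32 and 0 CPM in LFG 1, 2 and 3, 0.431, 0.772 and 0.426 in REG and 0.832, 0.904 and 0.569 in hADMSCs-Exo. For all 3 genes LFG 1 and 2 were above and LFG 3 was below every REG and hADMSCs-Exo library, and Ccnb1 had 528, 78 and 0 counts in LFG 1, 2 and 3. A count of 0 in LFG 3 allows up to 0.266 CPM (3 counts, counting error only). Cdc25c, Cenpf and Melk were also at 0 in LFG 3, Cdc25c in REG 3 and Ttk in hADMSCs-Exo 3.

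Cdk1, the mitotic kinase, had 28.1, 10.1 and 1.51 CPM in LFG 1, 2 and 3, 3.27, 2.703 and 3.41 in REG and 2.62, 1.75 and 1.52 in hADMSCs-Exo. Ccnb2, another B-type cyclin, had 31.4, 8.15 and 1.51 CPM in LFG 1, 2 and 3, 1.91, 0.441 and 0.3197 in REG and 1.55, 0.482 and 0.506 in hADMSCs-Exo. LFG 3 was just below the lowest recovery library for Cdk1 and inside the range for Ccnb2, a gene with a named pseudogene, as also Pcna, Ccnb1 and Tyms have, so that reads shared with the copy are uncertain. Foxm1, a transcription factor that drives G2 genes, had 10.7, 3.44 and 0.177 CPM in LFG 1, 2 and 3, 0.431, 0.717 and 0.639 in REG and 0.892, 0.542 and 1.26 in hADMSCs-Exo. Mybl2, its partner in that programme, had 1.89, 1.33 and 0.621 CPM in LFG 1, 2 and 3, 0.493, 0.496 and 0.693 in REG and 0.951, 0.603 and 0.506 in hADMSCs-Exo, the smallest ratio of LFG 1 to the recovery median among mitotic genes. Birc5, the survivin subunit of the chromosomal passenger complex, had 27.8, 7.37 and 1.42 CPM in LFG 1, 2 and 3, 2.16, 1.32 and 1.17 in REG and 3.21, 1.81 and 2.21 in hADMSCs-Exo. Cdc20, an activator of the anaphase-promoting complex, had 27.4, 4.38 and 0.355 CPM in LFG 1, 2 and 3, 1.72, 1.93 and 1.54 in REG and 0.892, 0.964 and 0.949 in hADMSCs-Exo. In these genes too LFG 1 was first and LFG 2 second, and REG and hADMSCs-Exo overlapped in all but Cdk1 and Cdc20, where hADMSCs-Exo was lower.

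The other mitotic genes among the 5 members with the smallest p in a comparison are given next. Kif20a, a kinesin of the central spindle, had 15.2, 2.61 and 0.798 CPM in LFG 1, 2 and 3, 1.05, 0.386 and 0.906 in REG and 0.476, 0.603 and 0.316 in hADMSCs-Exo. Ect2, an exchange factor for RhoA at cytokinesis, had 16.6, 5.32 and 0.532 CPM in LFG 1, 2 and 3, 0.678, 0.827 and 1.49 in REG and 0.535, 0.784 and 1.08 in hADMSCs-Exo. Nusap1, a spindle-associated protein, had 11.9, 3.77 and 0.443 CPM in LFG 1, 2 and 3, 2.09, 1.38 and 2.66 in REG and 1.49, 0.723 and 0.949 in hADMSCs-Exo. Kif20a in LFG 3 stayed inside the range of the recovery libraries, and Ect2 and Nusap1 in LFG 3 lay below it. Of the mitotic genes not given by library, Aurka, Kif11, Ccna2 and Ube2c had an unadjusted p under 0.05 in both comparisons with LFG, Cenpe in REG against LFG and Plk1 in hADMSCs-Exo against LFG, with log2 fold changes of -1.90 (Aurka) to -3.38 (Cenpe) by edgeR.

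**Figure D4:**
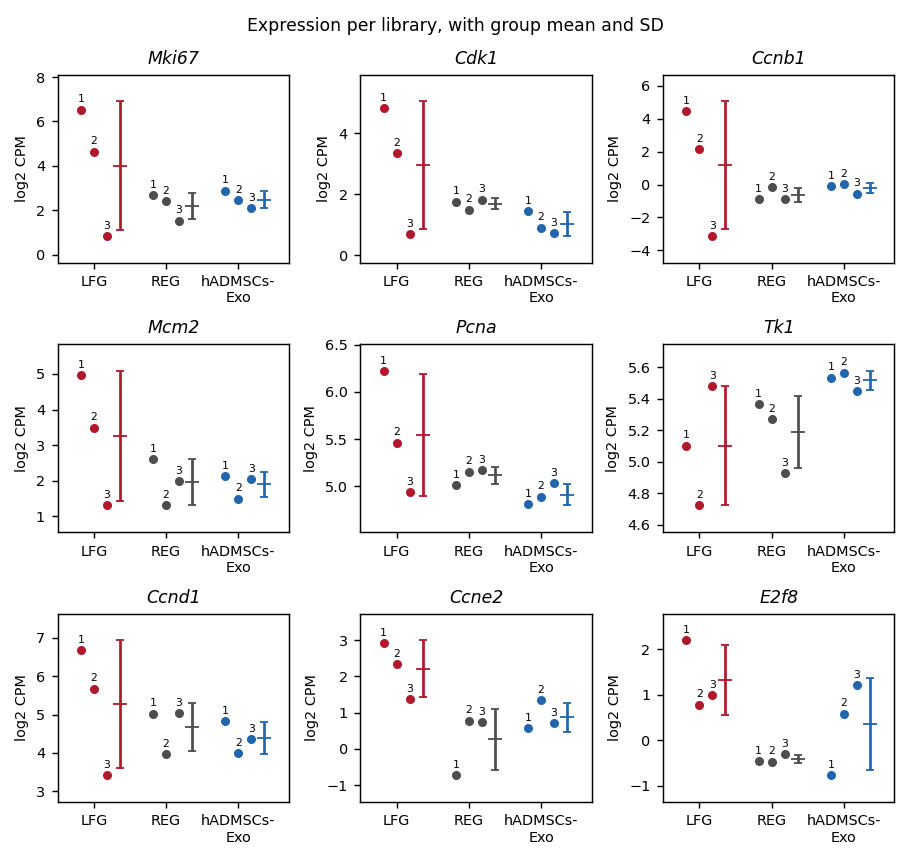
Log2 CPM (y axis) of 9 members in each library, numbered by replicate, with the mean and SD of each group beside the points (n = 3). The LFG points are spread widely for Mki67, Cdk1, Ccnb1 and Mcm2, and for Tk1 LFG 2 is the lowest point of all.

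The comparison of REG with LFG asked what changed over the 4 weeks after CCl4 with PBS alone. With all 6 libraries, no member was called, which needed an adjusted p under 0.05 and a log2 fold change of 1 or more in either direction (edgeR quasi-likelihood test, Benjamini-Hochberg over 12517 genes), and neither was any other gene (0% of those tested). At an unadjusted p under 0.05, 17 members were lower in REG and 0 higher, against 6.7% lower and 4.62% higher among all genes tested. DESeq2 called 4 members lower, namely Ccne2, E2f8, Ccnb2 and Birc5, beside 240 of the 12517 genes called in either direction. With limma voom and library quality weights 22 members were called, beside 1285 of those genes. Of the 45 members 41 passed the filter on low counts, which LFG 1 and 2 could carry together with any other library. Without a filter 44 of 45 had a log2 fold change below 0, against 55.9% of filtered genes.

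The smallest p belonged to E2f8 in this comparison (-2.05 ± 0.54 SE, adjusted p = 0.318), followed by Ccne2 (-2.03 ± 0.60 SE, adjusted p = 0.354), Ccnb2 (-3.94 ± 1.20 SE, adjusted p = 0.371), Ccne1 (-1.36 ± 0.43 SE, adjusted p = 0.385) and Birc5 (-2.97 ± 0.98 SE, adjusted p = 0.388), all by edgeR. Groups did not overlap for 4 members, Ccne1, Ccne2, E2f8 and Kif11, each lower in REG, against 9.63% of all genes. For a single gene of 3 against 3 libraries the exact two-sided permutation test cannot go below 0.1. Mki67 had a log2 fold change of -3.07 ± 1.17 SE, Top2a -2.60 ± 1.21, Ccnb1 -4.01 ± 1.54, Cdk1 -2.08 ± 0.87 and Mcm2 -1.86 ± 0.84. Medians of the tested members were -1.36 for G1/S, -1.59 for S phase and -2.77 for mitotic genes, beside -0.07 over all genes. Without LFG 1 they were -1.01, -0.47 and -1.09, so that S phase was then the smallest of the 3. Tk1 had 0.06 ± 0.25, and -0.11 when library totals were used with no scaling factor, a setting that moved the median of all genes to -0.27.

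Without LFG 3, 38 of the 45 members were called lower in REG and 0 higher by edgeR, against 6.94% of all genes called lower and 3.81% higher, and 42 of 45 did not overlap, against 27.5%. In fits without LFG 3 the filter could be passed through LFG 1 and 2 alone, where the members were high. All 45 were then tested, against 41 with all libraries. Cdc25c, Bub1, Cdkn3 and Melk entered that way and could hardly be other than lower, so their calls do not test the direction. The called members were 5 of 5 G1/S genes, 8 of 14 S phase genes and 25 of 26 mitotic genes. Examples were Mki67 (-3.60 ± 0.55 SE, adjusted p = 0.0153), Ccnb1 (-4.56 ± 0.70 SE, adjusted p = 0.0153), Mcm4 (-2.40 ± 0.40 SE, adjusted p = 0.0159) and E2f1 (-1.58 ± 0.31 SE, adjusted p = 0.0205). Pcna, Tyms, Rrm1, Rrm2, Tk1, Cdt1 and Mybl2 were not called, with Pcna at -0.74 ± 0.23. Without LFG 1, on the other hand, no member was called, 2 had an unadjusted p under 0.05 (5.62% of all genes lower), and the median fell back to -0.83. The calls therefore depended on the LFG libraries included.

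The comparison of hADMSCs-Exo with LFG asked the same of recovery with exosomes, and shares the LFG libraries with the comparison above. With all libraries 0 members and 0% of 12489 genes were called by edgeR, while 21 members were lower at an unadjusted p under 0.05 and 0 higher, against 3.68% lower and 2.3% higher among all genes. Deviations of LFG and hADMSCs-Exo libraries of the same number correlated at 0.101, 0.308 and 0.179, and no label pairs them. With the replicate number as a block 9 members had an unadjusted p under 0.05, beside 714 of the 12489 genes. DESeq2 called 2 members lower, Ccnb2 and Kif20a, beside 60 of all genes tested. By limma voom with library quality weights 0 members were called, beside 1 of all genes. Groups did not overlap for 5 of the 39 tested members, Ccne1, Ccne2, Rrm2, Aurka and Kif20a, all lower, against 6.12% of all genes, and only for Kif20a with library totals.

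The 5 members with the smallest p were Ccnb2 (-4.04 ± 1.12 SE, adjusted p = 0.805), Kif20a (-3.75 ± 1.10 SE, adjusted p = 0.805), Rrm2 (-2.34 ± 0.76 SE, adjusted p = 0.805), Ect2 (-3.26 ± 1.08 SE, adjusted p = 0.805) and Ccne2 (-1.52 ± 0.51 SE, adjusted p = 0.805) by edgeR. Mki67 had a log2 fold change of -2.86 ± 1.147 SE, Ccnb1 -3.55 ± 1.501, Cdk1 -2.79 ± 0.93, Mcm2 -2.05 ± 0.82 and Foxm1 -2.44 ± 1.14. Medians were -1.38 for G1/S, -1.94 for S phase and -2.78 for mitotic members tested, beside -0.06 over all genes. With the replicate number as a block these medians were -1.18, -1.45 and -1.82, beside -0.01 over all genes, and without LFG 1 they were -0.79, -0.85 and -1.05. Of the tested members Tk1 alone was above 0 (56.9% of all genes were below 0), at 0.36 ± 0.22.

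Without LFG 3, 33 of 45 members were called lower in hADMSCs-Exo and 0 higher by edgeR, against 4.5% of all genes called lower and 1.47% higher. They were 3 of 5 G1/S, 10 of 14 S phase and 20 of 26 mitotic genes, and included Mki67 (-3.39 ± 0.52 SE, adjusted p = 0.0226), Cdk1 (-3.28 ± 0.46 SE, adjusted p = 0.02098), Mcm6 (-3.20 ± 0.44 SE, adjusted p = 0.02098) and Ccnd1 (-1.84 ± 0.34 SE, adjusted p = 0.0294). Here too LFG 1 and 2 alone could carry the filter, and 45 members were tested against 39 with all libraries. Cdc6, Cdc25c, Cenpf, Cdkn3, Ttk and Melk entered that way, and a call of these does not test the direction. Groups then did not overlap for 42 lower members, against 25.1% of all genes, and for Tk1, which was higher at 0.59 ± 0.18 (23.7% of all genes higher). Without LFG 1 there were 0 calls, 3 members were lower at an unadjusted p under 0.05 (2.61% of all genes) and the median was -0.998. Beside these counts, the stellate cell list had 0 of 8 genes called with all libraries and without LFG 1, and 6 of 8 called lower without LFG 3.

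**Figure D5:**
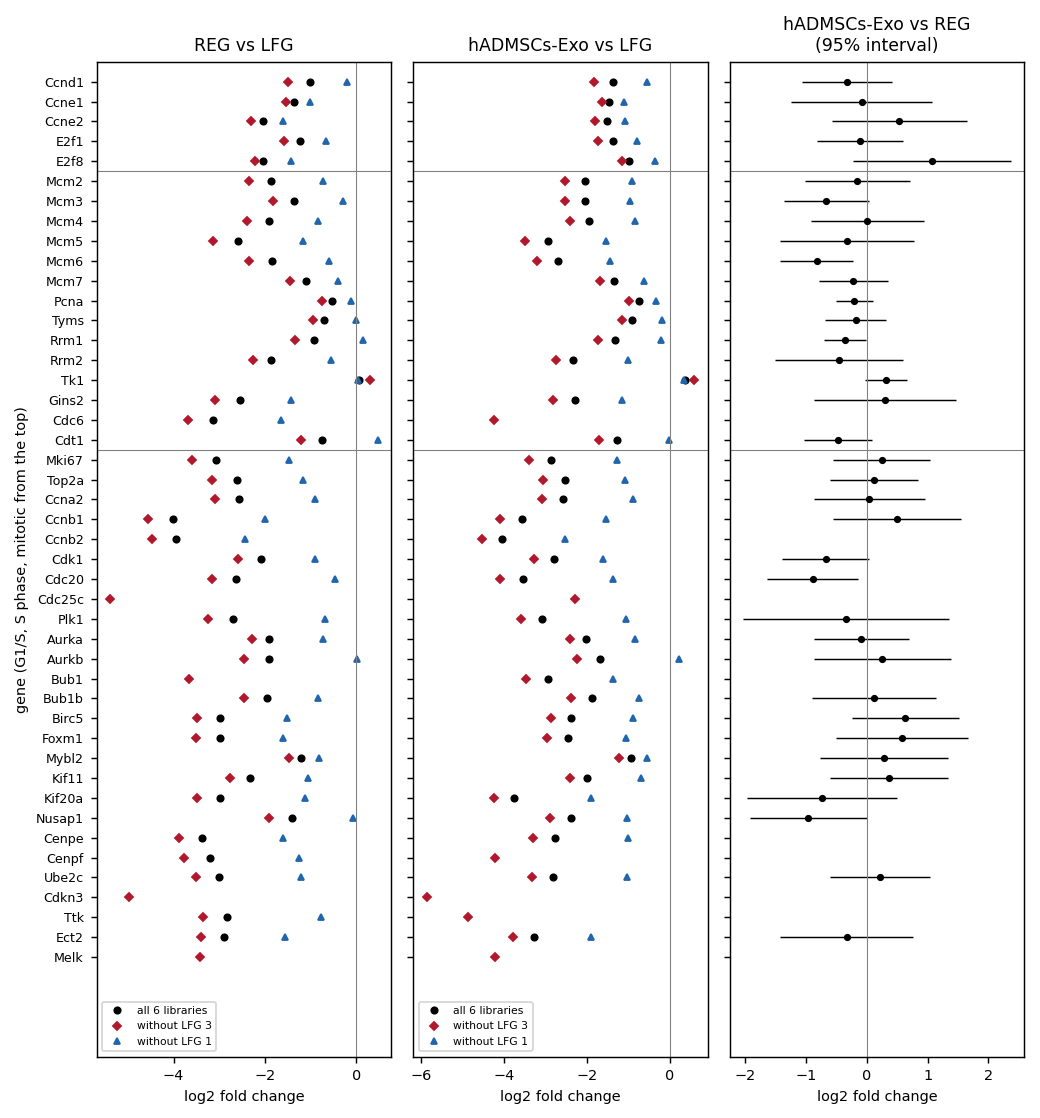
Log2 fold changes of the members (rows): REG against LFG and hADMSCs-Exo against LFG with all 6 libraries, without LFG 3 and without LFG 1, and hADMSCs-Exo against REG with 95% intervals. Leaving out LFG 1 moved nearly all points toward 0, leaving out LFG 3 moved them away from 0, and most intervals of the right panel include 0.

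The comparison of hADMSCs-Exo with REG, made at an equal recovery time, showed no called member. All 6 libraries gave 36 members tested of 45, and edgeR called 0 of them, against 1 lower gene of 12337 tested (0.00811%) and 0 higher. DESeq2 and limma voom with library quality weights also called 0 members, beside 67 and 3 of all genes. At an unadjusted p under 0.05, 4 members were lower by edgeR (4.69% of all genes) and 0 higher (5.34% of all genes). DESeq2 gave 1 and limma voom 2 at that threshold, beside 1197 and 1682 of all genes. At that threshold the count was 2 lower and 1 higher with no filter on low counts, the higher one being Cdc25c, and 2 lower and 1 higher with library totals, the higher one being Tk1. The 4 members were Mcm6 (-0.82 ± 0.26 SE, adjusted p = 0.409), Cdc20 (-0.89 ± 0.32 SE, adjusted p = 0.448), Rrm1 (-0.36 ± 0.15 SE, adjusted p = 0.488) and Nusap1 (-0.96 ± 0.42 SE, adjusted p = 0.497), by edgeR.

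On log2 CPM scaled within the 6 libraries compared, groups did not overlap for 7 lower members (7.82% of all genes lower), and for Tk1, which was higher (7.95%). The 7 were the S phase genes Mcm3, Mcm6, Pcna, Rrm1 and Cdt1 and the mitotic genes Cdk1 and Cdc20. On the CPM given above, scaled over all 9 libraries, Pcna overlapped, with 32.3 in REG 1 and 32.7 in hADMSCs-Exo 3. Cdc25c, a phosphatase that activates CDK1, did not pass the filter and was also higher in every hADMSCs-Exo library, with 7, 8 and 4 counts against 1, 1 and 0 in REG, and 76, 10 and 0 in LFG. Its adjusted p without the filter was 0.452 by edgeR. With library totals Mcm3, Cdt1 and Cdk1 left that set. Medians of the tested members were -0.09 for G1/S, -0.22 for S phase and 0.12 for mitotic genes, beside 0.01 over all genes. The intervals were often wide. The 95% interval of the log2 fold change ran from -0.56 to 1.04 for Mki67, from -1.02 to 0.71 for Mcm2, from -1.39 to 0.04 for Cdk1 and from -0.56 to 1.55 for Ccnb1, so that each interval included 0 as well as changes up to its bounds. It was narrow for Pcna, from -0.50 to 0.10. Other members toward higher values were Tk1 (0.32 ± 0.15 SE, adjusted p = 0.525), E2f8 (1.08 ± 0.56 SE, adjusted p = 0.556) and Birc5 (0.63 ± 0.38 SE, adjusted p = 0.602) by edgeR. E2f8 rested on hADMSCs-Exo 2 and 3, since hADMSCs-Exo 1 was the lowest library of all. The stellate cell markers had 8 of 8 log2 fold changes below 0 in this comparison, with a median of -1.14 and 6 at an unadjusted p under 0.05. The cell cycle medians beside them were -0.09 for G1/S, -0.22 for S phase and 0.12 for mitotic genes.

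Lists of other cell cycle genes were measured beside the members. Of 70 further mitosis genes 49 were tested in REG against LFG, with 21 lower at an unadjusted p under 0.05, 0 higher and 0 called (6.7% of all genes lower). Without LFG 3, 49 of 68 tested were called lower and 0 higher (6.94% of all genes lower), and without LFG 1, 0 were called, 4 were lower at an unadjusted p under 0.05 (Aspm, Gtse1, Mad2l1 and Cks1b) and the median was -0.90 against -2.01 with all libraries. Aspm, a spindle pole protein, had a log2 fold change of -2.65 ± 0.70 SE with all libraries, Gtse1 -2.43 ± 0.65 and Mad2l1, a checkpoint protein, -1.91 ± 0.58. In hADMSCs-Exo against LFG the same list had 21 lower at an unadjusted p under 0.05 (3.68% of all genes) and 0 called, 44 of 68 tested called lower without LFG 3 (4.5% of all genes), and 0 called with 2 at that p, Aspm and Mad2l1, without LFG 1. Of 48 further replication genes 42 were tested, and 6 were lower and 1, Pold2, higher at an unadjusted p under 0.05 in REG against LFG, and 0 were called, with a median over tested genes of -0.24. Without LFG 3, 14 of 47 tested were called lower and the median was -0.66. Without LFG 1 the direction turned, with 24 of 42 log2 fold changes above 0, a median of 0.09, 0 called and 3 lower at that p (Cdc45, Hells and Dbf4). With all libraries Cdc45, the helicase partner of the MCM ring, had -2.62 ± 0.53, Dbf4, the activator of the CDC7 kinase, -1.45 ± 0.40 and Hells -3.30 ± 0.95. In hADMSCs-Exo against LFG 8 of 43 tested were lower at an unadjusted p under 0.05 and 0 called with all libraries, 12 of 47 tested were called lower without LFG 3, and 0 were called and 3 lower at that p (Cdc45, Dbf4 and Atad2) without LFG 1. Rfc2, a clamp-loader subunit, had 0.21 ± 0.21 in REG against LFG.

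Against REG, hADMSCs-Exo had 6 lower and 0 higher of 40 replication genes tested at an unadjusted p under 0.05, beside 4.69% lower and 5.34% higher of all genes, the first being Gmnn, an inhibitor of licensing, at -0.68 ± 0.18 SE, Pold2 at -0.60 ± 0.19 and Brip1, a helicase, at -0.88 ± 0.31. Of these 40 genes 33 had a log2 fold change below 0, with a median of -0.23. In the mitosis list 29 of 40 were below 0, with a median of -0.13, beside 0.01 over all genes. The mitosis list had 4 lower of 40 tested, led by Cenpa, the centromeric histone, at -0.97 ± 0.24, with Ccnf at -0.49 ± 0.19 and Hmmr at -1.15 ± 0.46, and 1 higher, Espl1, at 1.35 ± 0.50. None of these passed the adjusted threshold by edgeR.

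Of the 16 other G1 genes 15 were tested, and in each comparison with LFG 0 were called with all libraries or without LFG 1, and 1, Tfdp1, had an unadjusted p under 0.05 in both settings. Tfdp1, the partner of E2F factors, was at 42.3, 33.9 and 37.96 CPM in LFG, 17.5 to 21.9 in REG and 20.6 to 24.6 in hADMSCs-Exo, with LFG 3 as high as the other LFG libraries, and its log2 fold change was -0.92 ± 0.19 in REG and -0.80 ± 0.18 in hADMSCs-Exo against LFG. Rbl1, a pocket protein that E2F itself induces, was at 13.6, 6.26 and 0.710 CPM in LFG 1, 2 and 3 and 1.81 to 4.74 in the other libraries, and was called lower without LFG 3 in both comparisons. Cdc25a, at 12.9, 6.65 and 2.75 CPM in LFG and 4.10 to 5.24 elsewhere, was called lower without LFG 3 in REG alone. Cdc25b, E2f2 and E2f7 had LFG 1 at 3.95, 5.30 and 1.18 CPM and LFG 3 at 0.443, 0.621 and 0.710. Cdk2, Cdk4, Cdk6, Ccnd2, Ccnd3, E2f3, E2f4, Rb1, Rbl2 and Myc had log2 fold changes of -0.61 (E2f3) to 0.59 (Rbl2) in REG against LFG and of -0.46 to 0.46 in hADMSCs-Exo against LFG. Against REG, the 15 G1 genes tested in hADMSCs-Exo lay between -0.51 (Rbl1) and 0.37 (Myc), and E2f7 was not tested.

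Of the 7 inhibitors of cyclin-dependent kinases 6 were tested in REG against LFG, with 1 lower at an unadjusted p under 0.05 (Cdkn1a) and 0 called. Without LFG 1, 0 were called, Cdkn1a was lower at that p, and Cdkn2c (0.92 ± 0.26 SE) and Cdkn2d (1.28 ± 0.47) were higher and did not overlap. In hADMSCs-Exo against LFG 0 had such a p with all libraries or without LFG 1. Without LFG 3, 1 was called lower in each of these comparisons, Cdkn1a, and Cdkn1b had an unadjusted p under 0.05. Cdkn1a, the p21 inhibitor induced by p53, was high in the same libraries as the members. It had 36.5, 41.4 and 1.69 CPM in LFG 1, 2 and 3, 3.94, 1.27 and 1.70 in REG and 3.09, 10.2 and 6.64 in hADMSCs-Exo. LFG 1 and 2 were above all other libraries. With all libraries Cdkn1a was not called in REG (-3.52 ± 1.07 SE, adjusted p = 0.371) or in hADMSCs-Exo (-2.03 ± 1.00, adjusted p = 0.806) by edgeR, nor without LFG 1 (-3.22 ± 1.16 SE, adjusted p = 0.510, and -1.72 ± 1.11, adjusted p = 0.992). It was called lower without LFG 3 in REG (log2 fold change -4.06 ± 0.41 SE, adjusted p = 0.0104) and in hADMSCs-Exo (-2.55 ± 0.41, adjusted p = 0.0249) by edgeR. Against REG it was at 1.53 ± 0.54 in hADMSCs-Exo with an adjusted p of 0.432. Cdkn1b, the p27 inhibitor, was at 33.2, 30.1 and 23.2 CPM in LFG and 21.2 to 23.5 elsewhere. Cdkn2c was at 22.5, 15.0 and 10.1 CPM in LFG, 21.8 to 26.4 in REG and 14.3 to 23.1 in hADMSCs-Exo. Cdkn2d had 1.86 to 3.74 CPM in LFG, 3.30 to 7.28 in REG and 2.78 to 3.21 in hADMSCs-Exo, with a log2 fold change of -0.75 ± 0.32 against REG. Cdkn1c was between 0.532 and 2.22 CPM, and Cdkn2a and Cdkn2b were at or below 0.801 CPM in every library.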

How the data were processed

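Liver RNA of 9 libraries (LFG, REG and hADMSCs-Exo, 3 each) was analysed, and 3 hADMSCs samples were not analysed here. Per the labels, the authors used cutadapt 1.15, HISAT2 2.0.5, GRCm38, HTSeq 0.9.1 and DESeq 1.30.0 to make the deposited raw read counts per gene. They also deposited FPKM values, which equalled counts over gene length and library total. Columns headed MSC_E were taken as hADMSCs-Exo although their header differs from the group's title and could be read as the hADMSCs group, to which these values would then belong. Use of strand and the annotation release are not given in the sources used here. Members and lists were chosen with earlier results of these data known.

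Tests on the counts used edgeR 4.0.16 under R 4.3.3 (filterByExpr, TMM, quasi-likelihood, two-sided), with Benjamini-Hochberg adjustment over all genes tested and 6 libraries per fit. A call needed an adjusted p under 0.05 together with a change of 1 or more on the log2 scale. Log2 CPM had a prior count of 2. SE is the log2 fold change over the square root of F. Alternatives were DESeq2 1.42.0, its size factors in edgeR, limma 3.58.1 voom with quality weights, no filter, 10 counts in every library, all 9 libraries, the replicate number as a block, each library left out and, chosen after seeing the data, library totals with no scaling. The scripts were tested on simulated data. Deviations of same-numbered hADMSCs-Exo and LFG libraries correlated at 0.101, 0.308 and 0.179, so the block is given beside that comparison. Totals of 13837445 to 19840917 counts and 3 libraries per group limit precision, and limits on a count of 0 cover counting error only. Positions matched GENCODE M21 for 45 members, and promoters came from RefSeq GRCm38.p6. Values in every library were given for 13 members chosen by role and for up to 5 members per direction with the smallest p in each comparison, and other members were given by ranges, counts or after their values were seen. Genes of the wider lists were named from the 3 with the smallest p per direction and comparison or, after their values were seen, where a count was small, except G1 genes and kinase inhibitors, which were all given.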

Additional observations from a re-analysis of the deposited data

How the results depend on the processing

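Of 992 values recomputed, 893 counted as unchanged, by a rule that differed with the kind of value. Fold changes of single members had to keep their direction and side of the threshold, and counts had to stay within 1.5 times. A median had to move by less than the pooled SD between libraries of its list's mean. That limit was wide where the LFG libraries differed, so a large shift of a median could count as unchanged there. Calls in the LFG comparisons depended on the library left out and on the tool: they ran from 0 to 38 in REG against LFG and from 0 to 33 in hADMSCs-Exo against LFG when 1 library was left out, the highest values being those without LFG 3. Over all genes the calls in these fits ran from 0 to 1391 and from 0 to 773. DESeq2 called 4 and 2, beside 240 and 60 of all genes, and limma voom 22 in REG against LFG, beside 1285. The cause was not tested. Members with an unadjusted p under 0.05 in REG against LFG numbered 31 by DESeq2, 36 by voom, 26 with no filter, 9 with 10 counts in every library (fewer genes tested), 32 with all 9 libraries and 2 to 44 with 1 library left out. Over all genes such p-values numbered 1417 of 12517 in the main fit, 1755 by DESeq2 and 5256 by voom. They numbered 1546 of 16343 with no filter, 1443 of 10911 with 10 counts in every library, 2009 of 12760 with all 9 libraries and 584 to 4830 with 1 library left out. In hADMSCs-Exo against LFG the members numbered 35 by voom, 13 with 10 counts in every library, 33 with all 9 libraries, 9 with the replicate number as a block and 3 to 44 with 1 library left out. Over all genes the count was 747 of 12489 in the main fit and 3506 by voom. It was 730 of 10896 with 10 counts in every library, 1243 of 12760 with all 9 libraries, 714 with the block and 377 to 3688 with 1 library left out. In hADMSCs-Exo against REG the members numbered 1 by DESeq2, 2 by voom, 0 with all 9 libraries and 1 to 4 with 1 library left out. Over all genes the counts were 1197, 1682, 484 and 617 to 1348, beside 1237 of 12337 in the main fit.

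Members whose groups did not overlap ran from 4 to 42, 5 to 43 and 10 to 13 with 1 library left out in REG against LFG, hADMSCs-Exo against LFG and hADMSCs-Exo against REG, and were 1 and 5 by library totals in the last 2 comparisons. The 42 and 43 came without LFG 3, where 27.5% and 25.1% of all genes were lower without overlap. In hADMSCs-Exo against LFG 23.7% of all genes were then higher without overlap. The share over all genes was not measured for the other fits with 1 library left out. With the same-numbered libraries as a replicate block, the count at an unadjusted p under 0.05 was 10 in REG against LFG and 1 in hADMSCs-Exo against REG. Over all genes it was 1078 and 1175. No label pairs the libraries in any comparison. Correlations of same-numbered libraries were 0.414, -0.200 and 0.306, and 0.157, 0.0064 and 0.037, and not every library correlated best with its own number. With the block the medians in REG against LFG were -1.35 for G1/S, -1.02 for S phase and -1.96 for mitotic members. With all libraries edgeR called 0 members with and without the block, and the block was not run without LFG 3.

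In hADMSCs-Exo against REG, leaving out 1 library moved the median log2 fold change of all tested members from -0.20 to 0.067 and of mitotic members from -0.11 to 0.30. Signs turned for Mcm2 (0.18 by voom, -0.44 to 0.24 with 1 library left out), Ccne1 (-0.73 to 0.25), E2f1 (-0.30 to 0.10), Mki67 (-0.032 to 0.51), Mybl2 (-0.019 to 0.47) and Top2a (-0.023 to 0.41). Tk1 in REG against LFG was -0.11 by library totals and -0.11 to 0.31 with 1 library left out. No member passed the adjusted threshold in hADMSCs-Exo against REG under any alternative run. Low counts limit Cdc6, Cdc25c, Cdkn3, Ttk and Melk most.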
